A study of Mus musculus with 12 samples.

Results

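The transcripts of 10 glycolytic enzymes were followed in tumour-associated macrophages (TAMs) of mice that received picrotoxin, a blocker of the GABA type A receptor, or its solvent DMSO. They were Pfkl, Pfkm, Aldoa, Tpi1, Gapdh, Pgk1, Pgam1, Eno1, Pkm and Ldha, which are 10 of the 24781 gene rows of the deposited table and 10 of the 9580 rows that were abundant enough to be tested. The 10 genes were chosen from their values in this same comparison, so their difference between the groups is a description here and carries no test. Wild-type C57BL/6J or C57BL/6N mice of both sexes, 2 to 5 months old, were inoculated intradermally with MC38, a mouse colon adenocarcinoma line. Picrotoxin, at 40 μg per mouse, or DMSO was injected into the peritoneum 1 day before inoculation and every other day from then on. On day 7, 100 CD45+CD11b+F4/80high cells were sorted from the tumour for each library, and each group held 6 libraries. The labels call the libraries independent preparations and do not say which mouse each came from. The study's methods describe a separate mouse for every library but a figure legend gives fewer mice than libraries, so p-values here measure the spread between these libraries, which may in part be technical, and are too small if libraries share a mouse.

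Glycolysis splits glucose into pyruvate in the cytosol and yields a small amount of ATP without oxygen, and lactate dehydrogenase then turns pyruvate into lactate and restores the NAD+ that the pathway consumes. Phosphofructokinase makes the committed step, aldolase and triose phosphate isomerase produce and interconvert the triose phosphates, and the enzymes from GAPDH to pyruvate kinase form the lower, energy-yielding part. In macrophages the pathway is known to increase on inflammatory activation, and the transcription factor HIF-1 induces many of its genes through short DNA elements with the core ACGTG or GCGTG.

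Because the data follow these genes as a group, the 250 bases before each transcription start in RefSeq (GRCm38.p6) were searched for ACGTG and GCGTG on both strands. RefSeq gave several starts for 5 of the genes, and the window nearest to the start of the principal GENCODE transcript was taken for each. At least 1 of these motifs lay in 8 of the 10 windows (80%), and in 15 of the 19 windows of all starts (78.9%), against 38.6% of all 32851 windows and 57.3% of the 9638 windows of tested genes. ACGTG alone lay in 40% of the 10 windows, against 16.6% of all windows and 22.7% of those of tested genes. The windows taken for Tpi1 and Pkm held neither motif, although the other window of Pkm did, and no match says only that these letters are missing from that stretch. Both windows held annotated exons, since they reached 138 bases (Tpi1) and 208 bases (Pkm) into the principal GENCODE transcript. Of the 6 windows with no annotated exon, 4 are shown from 5′ to 3′ on the strand of the gene with the motifs in capitals. They are Pgk1 (chrX:106186850-106187099, plus strand), which held ACGTG 2 times, Pgam1 (chr19:41911621-41911870, plus strand), with 3 motifs, Aldoa (chr7:126799255-126799504, minus strand) and Ldha (chr7:46846832-46847081, plus strand), with 1 each. CACGT and CACGC are the same motifs read on the other strand. A match is a description of the sequence and was not tested as a binding site.
Pgk1: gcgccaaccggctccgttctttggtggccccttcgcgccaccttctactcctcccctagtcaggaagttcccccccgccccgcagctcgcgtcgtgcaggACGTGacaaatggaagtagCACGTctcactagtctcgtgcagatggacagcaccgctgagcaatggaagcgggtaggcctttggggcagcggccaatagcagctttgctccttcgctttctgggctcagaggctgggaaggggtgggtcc
Pgam1: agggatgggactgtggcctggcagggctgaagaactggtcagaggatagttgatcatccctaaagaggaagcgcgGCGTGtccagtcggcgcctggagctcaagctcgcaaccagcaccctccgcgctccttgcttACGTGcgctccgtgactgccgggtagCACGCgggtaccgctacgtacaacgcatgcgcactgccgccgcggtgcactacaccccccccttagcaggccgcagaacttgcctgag
Aldoa: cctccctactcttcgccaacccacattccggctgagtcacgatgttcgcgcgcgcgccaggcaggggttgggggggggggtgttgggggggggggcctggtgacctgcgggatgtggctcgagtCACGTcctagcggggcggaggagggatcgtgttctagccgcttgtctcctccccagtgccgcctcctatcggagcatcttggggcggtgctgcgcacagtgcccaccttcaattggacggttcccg
Ldha: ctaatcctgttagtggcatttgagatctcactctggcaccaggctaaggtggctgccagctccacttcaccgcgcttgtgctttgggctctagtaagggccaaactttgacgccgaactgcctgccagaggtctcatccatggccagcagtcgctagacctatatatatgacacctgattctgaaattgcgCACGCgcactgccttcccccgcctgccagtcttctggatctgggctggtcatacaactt

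Libraries held between 201697 and 309617 molecules, each counted through a molecular barcode, and values are given below as normalised molecules, which are counts divided by the size factor of the library. A count of 0 in the smallest library allowed a share of up to 0.00149% (3 molecules), and this limit, like the intervals below, covers only the error of counting. All 15 macrophage markers had molecules and made up 1.26 to 1.80% of a DMSO library and 1.51 to 1.80% of a picrotoxin library, so the sorted cells carried the transcripts that their label names. The ribosomal RNA precursor Rn45s took 7.37 to 13.7% of the molecules in DMSO and 11.7 to 15.2% in picrotoxin libraries. The spike-in RNAs that were added to the tubes were not analysed here, so that fewer cells and less RNA per cell cannot be told apart.

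All 10 enzymes had a lower mean in the picrotoxin group, with log2 fold changes from -1.81 to -0.11, and in none of them were the libraries of the groups fully apart. The median log2 fold change over the 10 was -0.23, and it was -0.23 without Pfkm, while the median over all tested genes was -0.01. Among all tested genes, 50.8% had a log2 fold change below 0, and among the 336 genes with a mean of at least 100 normalised molecules, which include 8 of the enzymes, 51.5% did. No enzyme had an adjusted p under 0.05 in edgeR's quasi-likelihood test, a threshold that 0.0522% of all genes passed. At an unadjusted p under 0.05, 6 of the 10 were lower and 0 higher in edgeR, against 4.11% and 3.65% of all genes. In DESeq2, 5 of the 10 were lower and 0 higher, against 2.05% and 1.77% of all genes, and since this comparison chose the genes nothing is read from these counts.

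**Figure D1:**
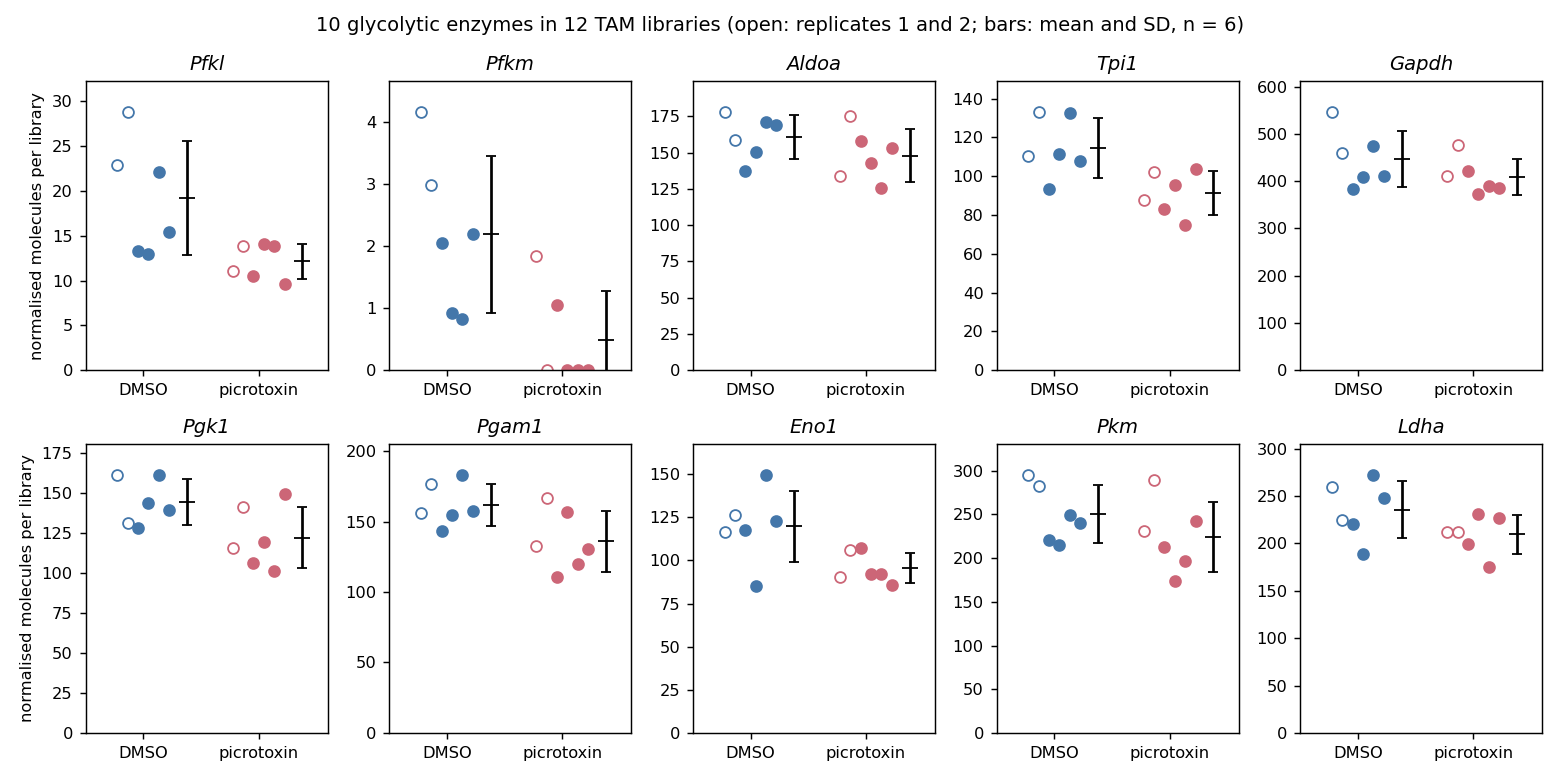
Normalised molecules (vertical axes, from 0) of the 10 enzymes in each of 6 DMSO libraries (blue) and 6 picrotoxin libraries (red), with open circles for the libraries numbered 1 and 2 and bars for mean and SD. The picrotoxin mean is the lower in all 10 panels, and the points of the groups overlap in all 10.

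Phosphofructokinase, the committed step of the pathway, is built from liver-type, muscle-type and platelet-type subunits. Pfkl, the liver-type subunit (chromosome 10: 77986947 to 78010083), ran from 13.0 through a median of 18.7 to 28.8 normalised molecules in DMSO. With picrotoxin it ran from 9.64 through 12.4 to 14.0. The means were 19.2 ± 6.35 and 12.1 ± 1.96 (SD, n = 6), a change of -36.9% between the means and a fitted log2 fold change of -0.64 (SE 0.23). All 6 picrotoxin libraries lay below the DMSO mean, although 2 DMSO libraries reached down into the picrotoxin range. In replicates 3 to 6 alone the log2 fold change was -0.40. The coefficient of variation within groups was 30.0%, and counting alone gives 24.7% at this number of molecules.

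Pfkm, the muscle-type subunit (chromosome 15: 98092589 to 98132451), was close to the detection limit. DMSO libraries held 1 to 4 molecules each and 14 in all. Picrotoxin libraries held 3 in all, with 0 in 4 of the 6. The normalised means were 2.19 ± 1.27 in DMSO and 0.482 ± 0.788 in picrotoxin (SD, n = 6), and the fitted log2 fold change of -1.81 (SE 0.80) rests on these few molecules. The mean of 1.34 over all libraries passed the minimum of 1 through the DMSO group, since the picrotoxin mean alone lay below it. Without picrotoxin replicate 1, which held 2 of the 3 molecules, the fitted value was -2.74.

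The middle steps produce and oxidise the triose phosphates. Aldoa, the aldolase that cleaves fructose 1,6-bisphosphate (chromosome 7: 126795234 to 126800751), ran from 137 through 164 to 178 normalised molecules in DMSO and from 125 through 148 to 175 in picrotoxin libraries. Its log2 fold change of -0.11 (SE 0.10) was about the size of its standard error, and 4 picrotoxin libraries lay at or above the lowest DMSO library. It was -0.17 without picrotoxin replicate 2, -0.17 on library totals and -0.07 without picrotoxin replicate 5. Tpi1, the isomerase of the triose phosphates (chromosome 6: 124810586 to 124814296), ran from 93.2 through 110.8 to 133 in DMSO and from 74.8 through 91.4 to 104 with picrotoxin. Its means were 115 ± 15.5 and 91.1 ± 11.4 (SD, n = 6), a log2 fold change of -0.32 (SE 0.12). All 6 picrotoxin libraries were below the DMSO mean of Tpi1, and 1 DMSO library, replicate 3, lay within the picrotoxin range.

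Gapdh, which oxidises glyceraldehyde 3-phosphate and produces NADH (chromosome 6: 125161715 to 125166467), ran from 384 through 435 to 546 normalised molecules in DMSO and from 372 through 400 to 476 in picrotoxin libraries. The log2 fold change was -0.12 (SE 0.09), and 5 libraries of each group lay in the range of the other. Without DMSO replicate 1 it was -0.06. The reads of Gapdh are uncertain because its transcripts share stretches of at least 100 bases at 95% identity or more with 81 other annotated genes. Of these, Gm12070 has a row with 228 to 370 molecules per library, and its means of 298 ± 24.1 in DMSO and 286 ± 25.1 in picrotoxin (SD, n = 6) gave a log2 fold change of -0.05 (SE 0.09). Tpi1, Pgk1, Pgam1, Pkm and Ldha share such stretches too, with annotated genes that have no row. The longest were 310 bases at 97.7% identity (Tpi1), 1255 at 100% (Pgk1), 765 at 100% (Pgam1), 1593 at 98.4% (Pkm) and 1000 at 95.6% (Ldha). What this does to the counts of these enzymes was not tested.

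The lower part of the pathway returns ATP. Pgk1, phosphoglycerate kinase (chromosome X: 106187100 to 106203699), ran from 128 through 141 to 161 normalised molecules in DMSO and from 101 through 117 to 149 in picrotoxin libraries, with a log2 fold change of -0.23 (SE 0.11). Pgam1, the mutase that moves the phosphate group (chromosome 19: 41911923 to 41918660), ran from 143 through 157 to 183 and from 110 through 132 to 167, with a log2 fold change of -0.24 (SE 0.11). In both genes 2 picrotoxin libraries lay within the DMSO range. These were not the same libraries throughout, since Pgk1 was highest among the picrotoxin libraries in replicate 6 and Pgam1 in replicate 2.

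Eno1, the enolase that forms phosphoenolpyruvate (chromosome 4: 150236721 to 150248879), ran from 85.3 through 120 to 150 normalised molecules in DMSO and from 85.7 through 92.2 to 107 in picrotoxin libraries. The means were 120 ± 20.7 and 95.6 ± 8.91 (SD, n = 6), with a log2 fold change of -0.32 (SE 0.12). All 6 picrotoxin libraries were below the DMSO mean and all 6 were above the lowest DMSO library, replicate 4, while the other DMSO libraries lay above the whole picrotoxin range. A separate row, Eno1b, lay within 4 molecules of Eno1 in every library, and the pair shares 1736 bases at 99.5% identity, so the counts of Eno1 cannot be told apart from those of Eno1b.

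Pkm, pyruvate kinase (chromosome 9: 59656368 to 59679375), ran from 215 through 245 to 295 normalised molecules in DMSO and from 174 through 222 to 290 in picrotoxin libraries. Its log2 fold change was -0.15 (SE 0.11), and picrotoxin replicate 2, at the top of its group, was almost level with the highest DMSO library. Without that library the value was -0.24, without picrotoxin replicate 4 it was -0.08, and without DMSO replicate 1 it was -0.10. Counts per gene do not separate the PKM1 and PKM2 splice forms. Ldha, the lactate dehydrogenase subunit that favours the formation of lactate (chromosome 7: 46841475 to 46855627), ran from 189 through 236 to 272 in DMSO and from 175 through 212 to 231 in picrotoxin libraries. Its log2 fold change was -0.16 (SE 0.10), with all 6 picrotoxin libraries below the DMSO mean and 5 of them within the DMSO range.

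Per kilobase of the principal transcript, the order in DMSO libraries was Gapdh at 315 ± 41.6 normalised molecules, Ldha at 133 ± 17.1, Aldoa at 106 ± 9.97, Pkm at 103 ± 13.4 and Pgam1 at 91.3 ± 8.43 (SD, n = 6). Then came Pgk1 at 78.9 ± 7.89, Tpi1 at 71.4 ± 9.63, Eno1 at 59.1 ± 10.2, Pfkl at 5.16 ± 1.70 and Pfkm at 0.760 ± 0.440 (SD, n = 6). Aldoa and Pkm, Pkm and Pgam1, and Pgk1 and Tpi1 are neighbours that differed by less than the larger of their SDs. Pfkl and Pfkm stood far below the other 8, and this scale is approximate because an oligo-dT primer on fragmented RNA does not sample a transcript evenly. Whether counts of barcoded molecules rise with transcript length was not tested, so this order depends on the division by length. Without the division, the DMSO means put Pkm (251) above Ldha (235), Pgam1 (162) beside Aldoa (161) and Eno1 (120) above Tpi1 (115). Each of these pairs differed by less than the larger of its SDs.

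Counted over libraries, 55 of the 60 picrotoxin values of the 10 enzymes were below the DMSO mean of their gene. For 5 enzymes (Pfkl, Pfkm, Tpi1, Eno1 and Ldha) all 6 picrotoxin libraries were below it, which held for 7.39% of all tested genes, and for the other 5 enzymes 5 of 6 were. Full separation of the groups, which was found for 0.188% of all tested genes in this direction, was seen for 0 of the 10. Since this comparison chose the genes, nothing is read from these counts, and Pfkm passed the minimum mean only through its DMSO values. Picrotoxin replicate 2 was above the DMSO mean for 4 enzymes and replicate 6 for 1. DMSO libraries were also uneven, since replicates 3 and 4 lay below the DMSO mean for all 10 enzymes, while replicate 1 was the highest of the 12 libraries for 5 of them and replicate 5 for 3. For the 8 enzymes apart from Pfkl and Pfkm, the coefficient of variation within groups was 10.7 to 15.5%, and counting alone gives 4.76 to 9.66%.

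**Figure D2:**
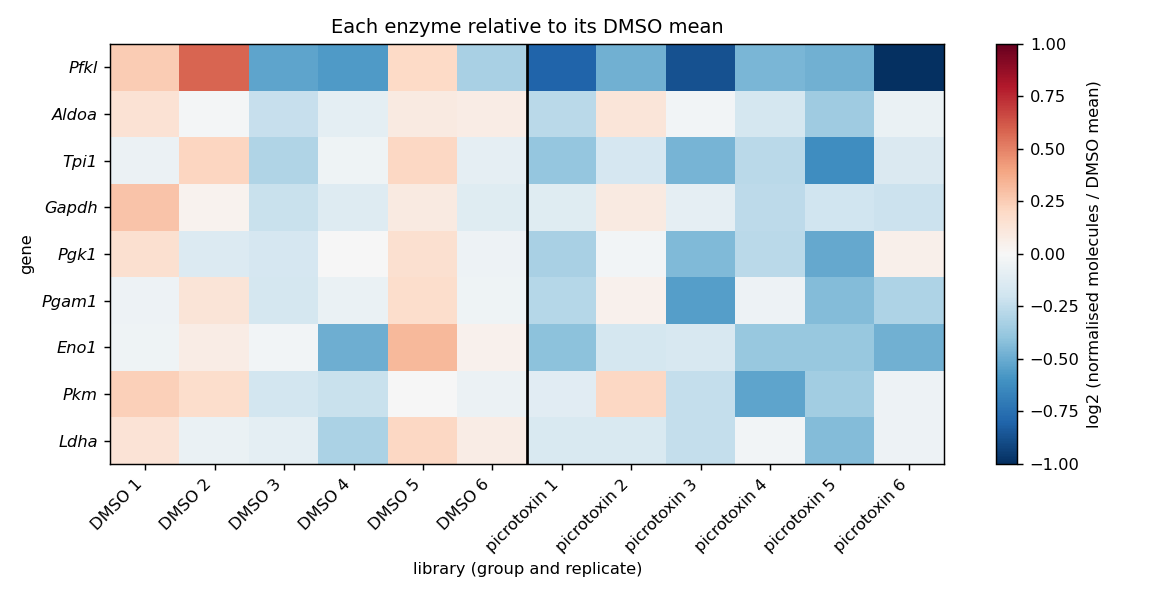
Log2 ratio of the normalised molecules of each enzyme (rows, Pfkm left out because of its zeros) to its DMSO mean in each library (columns, group and replicate), with blue for lower and red for higher. DMSO replicates 3 and 4 are below 0 for all 9 genes shown, as are picrotoxin replicates 1, 3, 4 and 5, and the lowest square is that of Pfkl in picrotoxin replicate 6.

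Together the 10 enzymes made up 0.720% ± 0.0808 of the molecules of a DMSO library and 0.611% ± 0.0533 of a picrotoxin library (SD, n = 6). DMSO shares ran from 0.620% in replicate 3 (95% Wilson interval 0.588 to 0.653) through a median of 0.727% to 0.810% in replicate 1 (0.773 to 0.848). Picrotoxin shares ran from 0.555% in replicate 5 (0.523 to 0.588) through 0.596% to 0.706% in replicate 2 (0.673 to 0.742). All 6 picrotoxin shares were below the DMSO mean, 2 of them were within the DMSO range, and the difference was -0.109 percentage points. With Rn45s, which took a larger part of the picrotoxin libraries, left out of the totals, the shares were 0.800% ± 0.0693 and 0.702% ± 0.0555 (SD, n = 6), 5 of 6 picrotoxin libraries were below the DMSO mean, and the difference was -0.0981. Without Gapdh the shares were 0.526% ± 0.0568 and 0.439% ± 0.0427 (SD, n = 6).

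**Figure D3:**
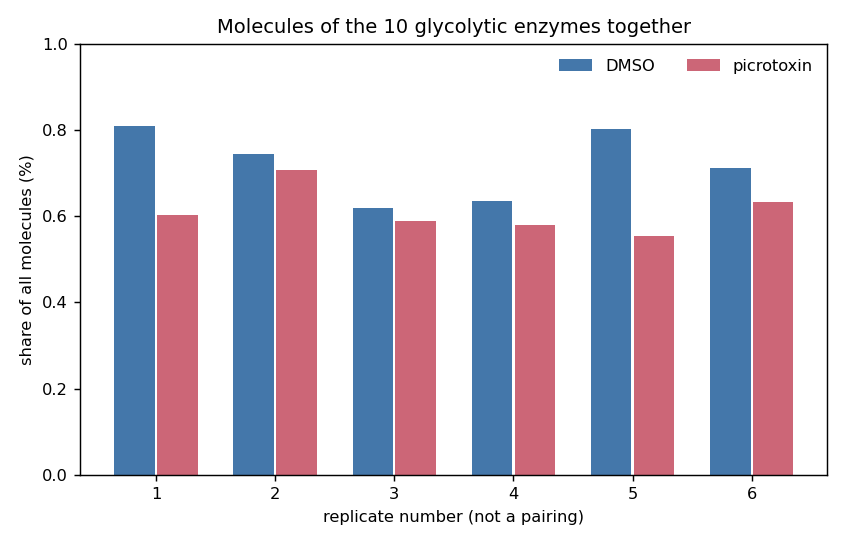
Share of all molecules (%) taken by the 10 enzymes together in each library, by replicate number (horizontal axis), with DMSO in blue and picrotoxin in red. The bars run from 0.555% to 0.810%, and the labels do not pair libraries of equal number.

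The enzymes were also set side by side by replicate number. For libraries numbered 1 and 2, the share was 0.744 to 0.810% in DMSO and 0.602 to 0.706% in picrotoxin libraries, and for those numbered 3 to 6 it was 0.620 to 0.803% and 0.555 to 0.633%. The difference between the groups was -0.122 percentage points among numbers 1 and 2 and -0.103 among numbers 3 to 6. In edgeR with both terms, numbers 1 and 2 differed from 3 to 6 in 99 genes (1.03% of all tested) at an adjusted p under 0.05. Of the 10 enzymes 0 were among them, which says little at that share. All 10 had a fitted value above 0 in numbers 1 and 2, as 48.0% of all tested genes did. What this split stands for is not given in the labels. Among replicates 3 to 6 alone, 9 enzymes could be tested and the median log2 fold change was -0.25.

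Transcripts of other cells were few, with at most 13 molecules of neutrophil, 9 of dendritic cell, 23 of T and NK cell, 3 of B cell and 21 of MC38 epithelial markers in any library. The epithelial markers summed to 8 to 14 molecules in DMSO and 9 to 21 in picrotoxin libraries (exact permutation test, two-sided, p = 0.0476, adjusted over 7 lists 0.333), with Epcam, Krt18, Krt19, Krt20 and Cldn4 at 0. For the other 6 marker lists the exact permutation p over all libraries was between 0.132 and 0.554. The share of fibroblast and matrix markers differed by -0.0679 percentage points over all libraries (picrotoxin minus DMSO). Among replicates 3 to 6 alone it differed by -0.116 percentage points. There the exact permutation p, taken over the assignments of those libraries and not adjusted over the lists, was under 0.05. Fibroblast and matrix markers summed to 205 to 1410 molecules in DMSO and 275 to 509 in picrotoxin libraries, with Fap at 0 in all of them and Fn1, which macrophages also express, as the largest part in most. Without Fn1, the other 14 matrix markers reached 846 molecules in DMSO replicate 5, 218 in replicate 3 and 148 in replicate 6, and at most 60 in the other 9 libraries. DMSO replicate 5 was also among the highest for the enzymes and replicate 3 among the lowest, and without both of them the median log2 fold change of the 10 was -0.24. With the log2 share of matrix markers as a covariate, an alternative chosen after seeing the data, the median log2 fold change of the 10 enzymes was -0.24. What these transcripts contribute to the levels of the enzymes was otherwise not tested.

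The other genes of glucose metabolism were then counted from 8 lists of 126 genes, 103 of which were tested. None had an adjusted p under 0.05 in edgeR (smallest 0.312, Bsg) or in DESeq2, where 0.0209% of all genes had one. At an unadjusted p under 0.05, 10 of the 103 were lower and 2 higher in edgeR, against 4.11% and 3.65% of all tested genes, and DESeq2 gave 6 lower and 1 higher, against 2.05% and 1.77%. The same shares stand behind the counts of each list below, as does the 50.8% of all tested genes with a log2 fold change below 0. Of the 103 genes, 57 (55.3%) had a log2 fold change below 0, and the median over the 103 was -0.02. Named below are the 2 genes of each list with the smallest p-values in this comparison, among those with a mean of at least 10. Genes named outside this rule are marked.

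Other steps and isozymes of glycolysis had a median log2 fold change of -0.24 over 9 tested genes, with 7 below 0, 1 lower at an unadjusted p under 0.05 and 0 higher. Hk2, the hexokinase that traps glucose in the cell, averaged 25.6 ± 4.24 normalised molecules with DMSO and 17.8 ± 3.40 with picrotoxin (SD, n = 6). The fitted log2 fold change of Hk2 was -0.52 (SE 0.18, adjusted p = 0.408), with all 6 picrotoxin libraries below the DMSO mean. Pfkp, the platelet-type phosphofructokinase subunit, had means of 38.2 ± 16.1 and 28.8 ± 3.80 (SD, n = 6), with a log2 fold change of -0.38 (SE 0.20, adjusted p = 0.696).

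Among transporters, 4 of 8 tested genes were below 0 and 4 above, with a median log2 fold change of 0.006. At an unadjusted p under 0.05, 3 of the 8 were lower (4.11% of all genes) and 0 higher. Slc2a1, the glucose transporter GLUT1, averaged 34.8 ± 6.99 normalised molecules with DMSO and 27.2 ± 4.41 with picrotoxin (SD, n = 6), with a log2 fold change of -0.35 (SE 0.17, adjusted p = 0.628). Bsg, the chaperone of the lactate transporters, had 63.5 ± 10.3 and 44.7 ± 11.0 (SD, n = 6), with a log2 fold change of -0.50 (SE 0.15, adjusted p = 0.312). Both were below the DMSO mean in 6 of 6 picrotoxin libraries. Slc16a1, the lactate transporter MCT1, was named after its values were seen and had 7.22 ± 1.90 and 3.78 ± 2.08 (SD, n = 6; log2 fold change -0.90, SE 0.36, adjusted p = 0.508).

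Regulators of the flow had 10 of 13 tested genes above 0 and a median log2 fold change of 0.14, and 1 of them was higher at an unadjusted p under 0.05. That gene, Mlxip, a glucose-sensing transcription factor named after its values were seen, had a log2 fold change of 0.95 (SE 0.35, adjusted p = 0.450). Hif1a, the oxygen-regulated subunit of HIF-1, gave 0.16 (SE 0.14, adjusted p = 0.854). Pfkfb3, which makes the activator of phosphofructokinase, gave 0.19 (SE 0.25, adjusted p = 0.926). HIF-1 targets outside glycolysis were 9 below and 8 above 0 of 17 tested, with 3 lower at an unadjusted p under 0.05 (4.11% of all genes). Among them Bnip3, a mitophagy receptor, gave -0.44 (SE 0.20, adjusted p = 0.621) and Higd1a, a mitochondrial protein induced by hypoxia, -0.40 (SE 0.16, adjusted p = 0.539). The third of them, Ndrg1, was named after its values were seen and gave -0.76 (SE 0.29, adjusted p = 0.475).

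Genes for the entry of pyruvate into mitochondria had 9 of 11 tested members below 0 and a median log2 fold change of -0.29, with 1 lower at an unadjusted p under 0.05. Subunits of pyruvate dehydrogenase gave -0.41 for Pdha1 (SE 0.21, adjusted p = 0.677) and -0.29 for Dld (SE 0.19, adjusted p = 0.773). Dlat, a further subunit and the gene that passed the unadjusted threshold, was named after its values were seen and gave -0.65 (SE 0.27, adjusted p = 0.539). The TCA cycle was mixed, with 7 of 17 tested genes below 0, 1 lower and 1 higher at an unadjusted p under 0.05. Citrate synthase, Cs, gave -0.32 (SE 0.15, adjusted p = 0.638) and Suclg1, a subunit of succinyl-CoA synthetase, 0.46 (SE 0.22, adjusted p = 0.622).

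Of the pentose phosphate pathway, 4 of 8 tested genes were below 0 and 0 passed an unadjusted p of 0.05, with -0.09 for Pgls (SE 0.19, adjusted p = 0.953) and 0.11 for the transketolase Tkt (SE 0.15, adjusted p = 0.927). Glycogen and hexose side branches had 14 of 20 tested genes below 0 and a median of -0.26, with 1 lower at an unadjusted p under 0.05. The shuttle enzymes Mdh1 and Got2 gave -0.28 (SE 0.20, adjusted p = 0.787) and -0.31 (SE 0.20, adjusted p = 0.757).

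**Figure D4:**
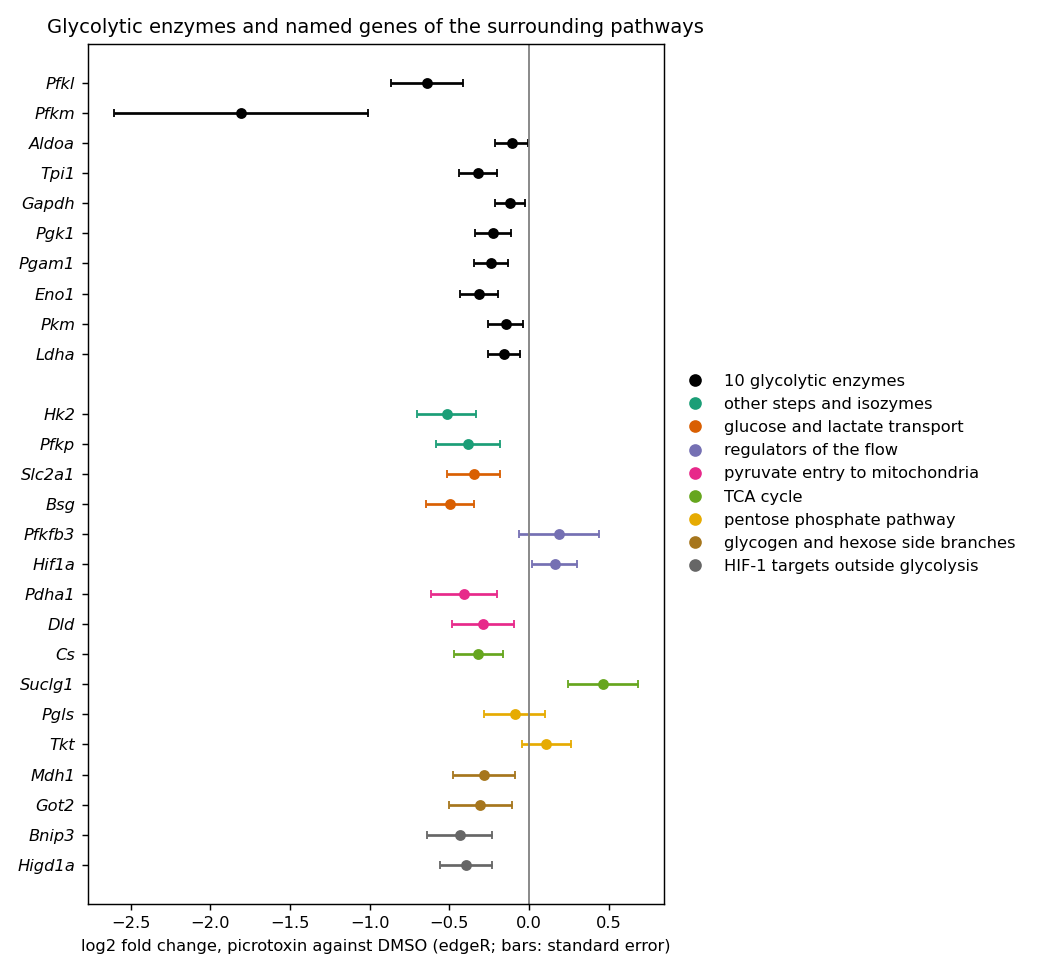
Log2 fold change with standard error (horizontal axis, edgeR, picrotoxin against DMSO) of the 10 enzymes (black) and of 16 named genes of the surrounding pathways, coloured by list. All 10 enzymes lie left of 0, and Pfkfb3, Hif1a, Suclg1 and Tkt lie right of it. The 16 genes were picked by their p-values in this comparison.

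After the mean of each group was taken off, the 10 enzymes varied together between libraries to a differing degree, with a median Pearson r of 0.45 over the 45 pairs of enzymes (from -0.29 to 0.82, 12 libraries). Gapdh followed the mean of the other 9 most closely (r = 0.82), followed by Pkm (0.76) and Aldoa (0.71), and Pfkm least (0.09). Among 3732 other genes with a mean of at least 10 normalised molecules, the nearest to the mean of the 10 were Slc11a1, a metal ion transporter of phagosomes (r = 0.90, rho = 0.94), and Coro7, a coronin of the Golgi (r = 0.89, rho = 0.85). They were followed by the chemokine gene Cxcl9 (r = 0.89, rho = 0.92), the complex I subunit Ndufa9 (r = 0.89, rho = 0.83) and the mitochondrial carrier Ucp2 (r = 0.88, rho = 0.91). Without DMSO replicates 1 and 4, the libraries farthest from the median, r was 0.88, 0.91, 0.87, 0.85 and 0.89 in the same order. These points share library, depth and totals, and genes at the top of a ranking are close by construction. The split of numbers 1 and 2 against 3 to 6 was not taken off. All 10 enzymes had a fitted value above 0 in numbers 1 and 2, and the part of this split in the correlations was not tested. The log2 fold changes of these 5 genes were 0.16 (SE 0.17), -0.13 (SE 0.21), 0.14 (SE 0.16), 0.18 (SE 0.28) and -0.07 (SE 0.12). Of the genes in the 8 lists, Mpc2, part of the mitochondrial pyruvate carrier, ranked 22nd (r = 0.83) and Slc2a1 ranked 60th (r = 0.76). Mpc1, the other part of that carrier, ranked 3393rd (r = -0.47), and Ogdh of the TCA cycle ranked 3690th (r = -0.70).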

How the data were processed

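The 12 libraries were grouped by their labels. The table deposited by the authors holds raw counts of barcoded molecules for each gene symbol, made from barcoded oligo-dT libraries that were mapped with STAR to mm10 and annotated with refFlat. The handling of strand and of reads with several positions is not given in the sources used here. Genes with a mean above 1 normalised molecule were tested with edgeR 4.0.16 (limma 3.58.1), using TMM, the quasi-likelihood test and Benjamini-Hochberg adjustment over 9580 genes. DESeq2 1.42.0 was an alternative and gave the size factors. Its 2 genes called are at an adjusted p under 0.05, while an unadjusted p under 0.05, the rule of the study, gave 366 genes. The standard error came from the fold change and the F statistic. For marker shares, groups were compared with a two-sided exact permutation test (924 assignments). The fit was also run on counts simulated from the observed means and its own dispersions. These held no shared mice, split of replicate numbers or other cells, so the run checks only the code.

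The 10 enzymes, the lists and the split of replicate numbers were chosen with earlier results of these data known. Named genes were the 10 enzymes, their near-copies, the 2 smallest p-values of each list among genes with a mean of at least 10, and the 5 nearest patterns. Positions are from GENCODE release M21 on GRCm38, the assembly also called mm10, and promoter windows from RefSeq on GRCm38.p6. Of the listed near-copies with a row apart from Eno1b, Aldoart1 and Ldhal6b held at most 2 molecules and Aldoart2 held 0. Of genes found by sequence to share stretches with Gapdh, Gm12070 held 228 to 370 molecules and Gm5069 held 11 to 33. Copies without a row were not analysed here. Each of the 30 pairs of libraries within a group differed by more than sampling noise (chi-square per degree of freedom 1.23 to 3.15). The result of 1 gene that is counted among the lists is not reported here.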

Additional observations from a re-analysis of the deposited data

Results flagged for a closer look

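Markers of T and NK cells summed to 23 molecules in picrotoxin replicate 6, whereas the remaining libraries of that group held 0 to 2. In picrotoxin replicate 3, B cell markers summed to 1 molecule, against 2 in each of the others. Both stood apart from their group by more than the 95% limit of Dixon's gap test, and of 36 such tests about 1.8 would do so by chance. No enzyme did.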

How the results depend on the processing

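All 10 enzymes stayed below 0 under every alternative that could fit them, which were 23 for each of 9 enzymes and 21 for Pfkm. Since this comparison chose the genes and the alternatives refit the same libraries, nothing is read from the kept sign. The median log2 fold change of the enzymes stayed between -0.29 and -0.19, with -0.29 on library totals, which moved the median of all genes to -0.06. The share difference lay between -0.130 and -0.0873 percentage points. The count of genes called over the whole table was unstable. It was 5 (3 higher, 2 lower) in the main test, 2 in DESeq2, 13 on library totals (3 higher, 10 lower), 81 with every gene of at least 1 molecule, 49 in replicates 3 to 6 alone, 27 with numbers 1 and 2 against 3 to 6 as a term, 1 without DMSO replicates 3 and 5, and 12 without Rn45s. Leaving out single libraries gave 0 to 25, with 25 without DMSO replicate 1 and 23 without DMSO replicate 2. It was 1, 15, 0 and 0 without DMSO replicates 3, 4, 5 and 6 in turn, and 1, 0, 0, 0 and 3 without picrotoxin replicates 1 to 5, and edgeR gave 607 to 700 genes at an unadjusted p under 0.05 in the fits with 0 calls. It was 13 with matrix markers as a covariate and 5 with Eno1 and Eno1b counted once, both alternatives chosen after seeing the data. Of the other genes of glucose metabolism, 1 was called with every gene of at least 1 molecule, Bsg at an adjusted p of 0.0435, and 0 otherwise. The cause of these differences was not tested.

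With a replicate block, 43 genes were called, the median of the enzymes was -0.24, the share difference was -0.109, and 0 other genes of glucose metabolism were called. The deviations of libraries with the same number from their group had a mean r of 0.0128, against -0.00257 for other pairs, with 0 of 6 above 0.1. This r was taken over all tested genes, most with few molecules, where counting noise draws it towards 0. What libraries of equal number share was not tested. At 1 to 4 molecules in DMSO and 0 to 2 in picrotoxin libraries, Pfkm is limited by depth. Single libraries moved the values of Aldoa, Gapdh, Pkm and Pfkm by over 1.5 times, as given beside them.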
